A study of Mus musculus with 6 samples.

Results

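Toll-like receptors and the interleukin-1 receptor family signal through a small set of shared adaptor proteins and kinases, and 10 transcripts of that set are described here out of 23398 genes measured. They were taken by name: the adaptors Myd88, Ticam1 and Ticam2, the interleukin-1 receptor-associated kinases Irak1, Irak2, Irak3 and Irak4, the ubiquitin ligase Traf6, and the kinases Tbk1 and Ikbke. Dendritic cells grown from mouse bone marrow were treated for 12 hours with Ca(OH)2 nanoparticles (3 libraries) or with vehicle (3 libraries), and total RNA was sequenced. The labels give no mouse strain, age, sex or number of animals, name no growth factor in the culture, and do not say whether the libraries of a group came from separate cultures, so p-values measure the spread between these libraries, which may be technical. No genotype or other agent differs between the groups as labelled.

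In the textbook pathway, Myd88 binds the activated receptor and gathers Irak4, then Irak1 and Irak2, which engage Traf6 and so the NF-kappaB and MAP kinase branches. Ticam1 (TRIF), reached from Tlr4 through the bridging adaptor Ticam2 (TRAM), leads to Tbk1 and Ikbke, the kinases that phosphorylate interferon regulatory factors. Irak3 (IRAK-M) is known in macrophages and dendritic cells as an inhibitory family member that dampens the Myd88 branch.

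With nanoparticles 4 kinase transcripts and Traf6 rose. Irak3 rose most, from a mean of 6.01 to 24.7 FPKM, followed by Ikbke, from 3.03 to 10.7 FPKM. Irak2, Tbk1 and Traf6 rose by smaller amounts, and Irak1 fell from 15.6 to 11.1 FPKM. The adaptors Myd88, Ticam1 and Ticam2 and the kinase Irak4 did not pass the test. FPKM is fragments per kilobase of gene, relative to a library scale, so a comparison between libraries depends on that scale. Comparing genes with each other, as in orders of level and shares, depends on the gene lengths used. For Ikbke, that length is the 9018 bases of all its annotated exons together.

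Genes entered the test if 3 or more libraries held 1 FPKM or more, which left 10682. limma was fitted to log2(FPKM + 1), and a gene was called where its p, adjusted by the Benjamini-Hochberg method, was under 0.05. All 10 transcripts passed that filter. Of them, 5 were called higher, where 17.0% of all tested genes were, and 1 was called lower, where 16.2% were. Together 6 of 10 passed, against 33.2% of all tested genes. With all libraries scaled to the same summed FPKM, 4 of 10 passed (2 higher and 2 lower), against 48.0% of all tested genes, and with scaling by recovered read totals 6 of 10 passed (4 higher and 2 lower), against 44.2%. The groups did not overlap in 8 of 10, against 52.1% of all tested genes: 6 lay higher with nanoparticles (25.9% of all) and 2 lower (26.2% of all). Without nanoparticle library 1, which stood apart as described below, 8 of 10 passed, and so did 64.8% of all tested genes. The 10 had a median log2 change of 0.68, against -0.0010 over all genes in the test. As these are bulk samples, fewer cells of a type and less RNA per cell cannot be told apart.

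The libraries held 17285071 to 21980078 recovered reads, and each of the 10 transcripts rested on 337 to 2673 reads per library, so counting error was at most 5.45% of a value (Ticam2, lowest library). Nanoparticle library 1 stood apart: across the tested genes its log2(FPKM + 1) correlated at 0.942 and 0.928 with the other nanoparticle libraries, which correlated at 0.990 with each other, while vehicle libraries correlated at 0.993 to 0.994. It was the highest of the nanoparticle libraries for 8 of the 10 transcripts and the lowest for the other 2, Myd88 and Irak4. The share of all tested genes for which it was highest or lowest was not computed, so this count has no background. Summed dendritic cell markers were at 1453 to 1495 FPKM in vehicle and at 745, 1462 and 1540 FPKM in nanoparticle libraries 1 to 3, and Zbtb46, Cd209a and Clec10a fell. H2-Ab1 was the largest part of that sum in every library and did not pass (limma adjusted p = 0.628). It was at 982 to 1035 FPKM in vehicle and at 494, 1060 and 1162 FPKM in nanoparticle libraries 1 to 3. Itgax was at 442 to 456 FPKM in vehicle and 248 to 398 FPKM with nanoparticles, whereas Flt3 was under 1 FPKM throughout. Summed macrophage markers lay at 456 to 506 and 440 to 547 FPKM, a sum that held calls in both directions: Adgre1 (log2 change 1.37) and Fcgr1 (0.99) were higher, and Mrc1 (-2.84) and C1qa (-1.78) lower. Summed neutrophil markers lay at 265 to 297 and 180 to 250 FPKM, with Ly6g, Elane, Mpo and Ltf under 1 FPKM. Of these, Mmp8 fell from 230 to 259 FPKM to 129 to 133 FPKM, while S100a8 rose from 33.4 to 36.0 FPKM to 50.1 to 109 FPKM. Summed mast cell and basophil markers lay at 2.69 to 4.86 and 9.63 to 25.0 FPKM, with Mcpt8 and Ms4a2 under 1 FPKM. Gata2 was the largest part of that sum in vehicle and fell (log2 change -0.76), and Hdc was the largest part with nanoparticles and rose (log2 change 3.10). All 5 B and T cell markers were under 1 FPKM. The part of these cells in the results was not tested.

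**Figure D1:**
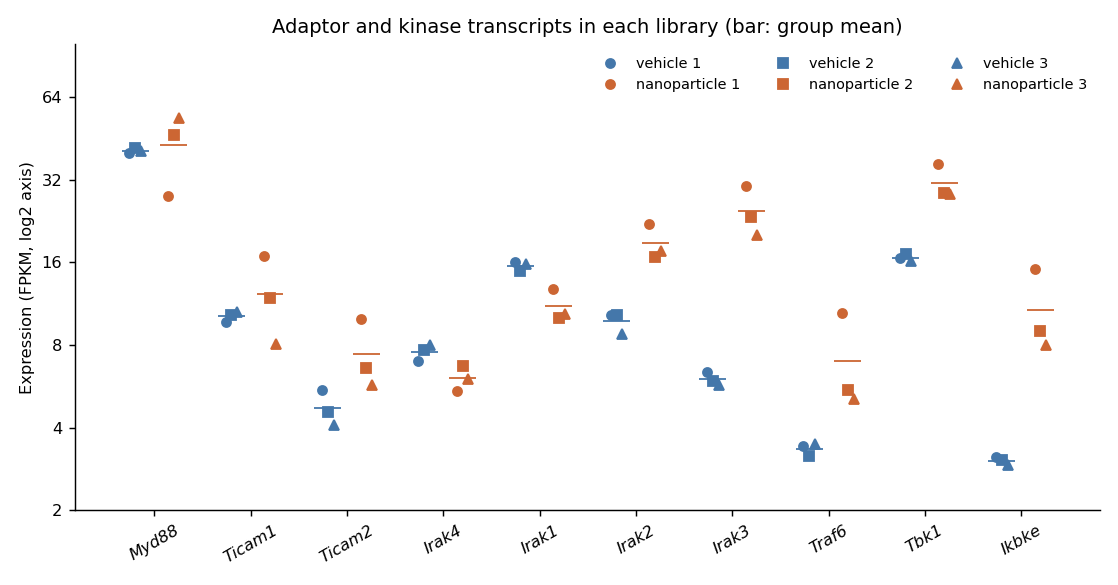
Expression of the 10 transcripts in FPKM (log2 axis), 1 point per library and a bar at each group mean, for 3 vehicle and 3 nanoparticle libraries. Irak3, Ikbke, Irak2, Tbk1 and Traf6 lie above vehicle in every nanoparticle library, Irak1 lies below, and Myd88 is spread from 28.0 to 53.8 FPKM with nanoparticles around vehicle values of 40.1 to 41.8 FPKM.

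Myd88 (ENSMUSG00000032508, chromosome 9, 119335934 to 119341411, minus strand), the adaptor that all Toll-like receptors except Tlr3 use, had the highest mean FPKM of the 10 in both groups. It was at 40.1, 41.8 and 40.7 FPKM in vehicle libraries 1 to 3 and at 28.0, 46.4 and 53.8 FPKM in nanoparticle libraries 1 to 3. The nanoparticle libraries lay on both sides of vehicle: library 1 was below every vehicle library and libraries 2 and 3 were above. The log2 change was 0.012 (SE 0.239, 95% interval -0.57 to 0.59, limma adjusted p = 0.974), and without nanoparticle library 1 it was 0.28 (limma adjusted p = 0.0136), past the threshold. Its coefficient of variation was 2.17% in vehicle and 31.2% with nanoparticles. Myd88 shares 290 exon bases, 11.3% of its own, with Acaa1a on the opposite strand, and Acaa1a, at 29.6, 53.9 and 61.5 FPKM with nanoparticles against 35.1 to 35.5 FPKM in vehicle, ran in the same order over the nanoparticle libraries. That order was also seen in genes that share no exon bases with Myd88, such as Actb, at 1305, 2550 and 2617 FPKM in nanoparticle libraries 1 to 3. Whether reads were counted by strand is not given in the sources used here, so reads of the shared stretch cannot be assigned to either gene, and their part in the Myd88 values was not tested.

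Ticam1 (ENSMUSG00000047123, chromosome 17, 56269319 to 56276786, minus strand), the adaptor of Tlr3 and of the endosomal branch of Tlr4, was at 9.71, 10.3 and 10.6 FPKM in vehicle and at 16.9, 11.9 and 8.10 FPKM with nanoparticles. Again the nanoparticle libraries fell on both sides of vehicle, but here library 1 was high and library 3 low. The log2 change was 0.20 (SE 0.241, 95% interval -0.39 to 0.78, limma adjusted p = 0.577), and it was -0.046 without nanoparticle library 1. Ticam2 (ENSMUSG00000056130, chromosome 18, 46557291 to 46574533, minus strand), which links Tlr4 to Ticam1, was at 5.51, 4.56 and 4.11 FPKM in vehicle and at 9.99, 6.62 and 5.72 FPKM with nanoparticles. Every nanoparticle library was above every vehicle library, by a small margin for library 3. Its log2 change of 0.54 (SE 0.205, 95% interval 0.04 to 1.03) missed the threshold (limma adjusted p = 0.0917), and without nanoparticle library 1 it was 0.33 and passed (limma adjusted p = 0.0487). Ticam2 shares 838 exon bases with Tmed7 on the same strand, and Tmed7 differed by 0.15 on the log2 scale, without passing (limma adjusted p = 0.231). The values of Ticam2 gave whole reads with a gene length of 3928 bases in place of the annotated 5792, so its level relative to other genes depends on that length.

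The 4 IRAK transcripts moved in different directions. Irak4 (ENSMUSG00000059883, chromosome 15, 94543643 to 94581815, plus strand), the kinase that acts first after Myd88, was at 7.03, 7.71 and 7.99 FPKM in vehicle and at 5.43, 6.70 and 6.04 FPKM with nanoparticles. All nanoparticle libraries were below all vehicle libraries, yet the log2 change of -0.28 (SE 0.109, 95% interval -0.55 to -0.02) did not pass (limma adjusted p = 0.0917). Irak4 shares 395 exon bases with Twf1 on the opposite strand, for which the log2 difference was -0.05 (limma adjusted p = 0.721). Irak1 (ENSMUSG00000031392, chromosome X, 74013914 to 74023918, minus strand), the substrate of Irak4 that recruits Traf6, was at 16.1, 14.9 and 15.8 FPKM in vehicle and at 12.8, 10.1 and 10.4 FPKM with nanoparticles. Every nanoparticle library was lower than every vehicle library, with library 1 the least so. The log2 change was -0.46 (SE 0.118, limma adjusted p = 0.0256). Leaving out any 1 library other than nanoparticle library 1 ended this call, with log2 changes of -0.40 to -0.49 in those fits.

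Irak2 (ENSMUSG00000060477, chromosome 6, 113638467 to 113695026, plus strand), a family member linked to sustained cytokine production after Toll-like receptor stimulation, was at 10.3, 10.3 and 8.81 FPKM in vehicle and at 22.1, 16.8 and 17.7 FPKM with nanoparticles. The groups were well separated, with the lowest nanoparticle library above the highest vehicle library. The log2 change was 0.87 (SE 0.135, limma adjusted p = 0.0040), a mean level 1.92 times that of vehicle. Irak3 (ENSMUSG00000020227, chromosome 10, 120141648 to 120202130, minus strand), the inhibitory member, was at 6.39, 5.93 and 5.71 FPKM in vehicle and at 30.5, 23.5 and 20.2 FPKM with nanoparticles. Each nanoparticle library held more than 3 times the Irak3 of any vehicle library. Its log2 change of 1.86 (SE 0.160, limma adjusted p = 4.7e-04) was the largest of the 10, and the mean level was 4.11 times that of vehicle. Without nanoparticle library 1 the log2 changes were 0.76 for Irak2 and 1.70 for Irak3. Irak3 shares 192 exon bases, 5.22% of its own, with Tmbim4 on the opposite strand, and Tmbim4 had a log2 change of 1.17 (limma adjusted p = 0.0013).

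These shifts changed the makeup of the IRAK transcripts. Their summed level was 39.0 ± 0.764 FPKM (SD, n = 3) in vehicle and 60.7 ± 8.89 FPKM (SD, n = 3) with nanoparticles. It was 70.8, 57.0 and 54.2 FPKM in nanoparticle libraries 1 to 3. This sum depends on the scaling between libraries and was not recomputed under another scaling. Over all genes, FPKM summed to 321728 to 328384 per vehicle library and to 400186 to 491404 per nanoparticle library. Irak1 made up 38.4% to 41.2% of the IRAK sum in vehicle and 17.6% to 19.2% with nanoparticles. Irak3 made up 14.9% to 16.1% in vehicle and 37.2% to 43.1% with nanoparticles, and so took the place of Irak1 as the largest share in all nanoparticle libraries. The share of Irak2 was 23.0% to 26.5% and 29.4% to 32.6%, and that of Irak4 was 17.7% to 20.9% and 7.66% to 11.8%. Shares are ratios within a library and do not depend on how libraries were scaled to each other, but they do depend on the gene lengths used.

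**Figure D2:**
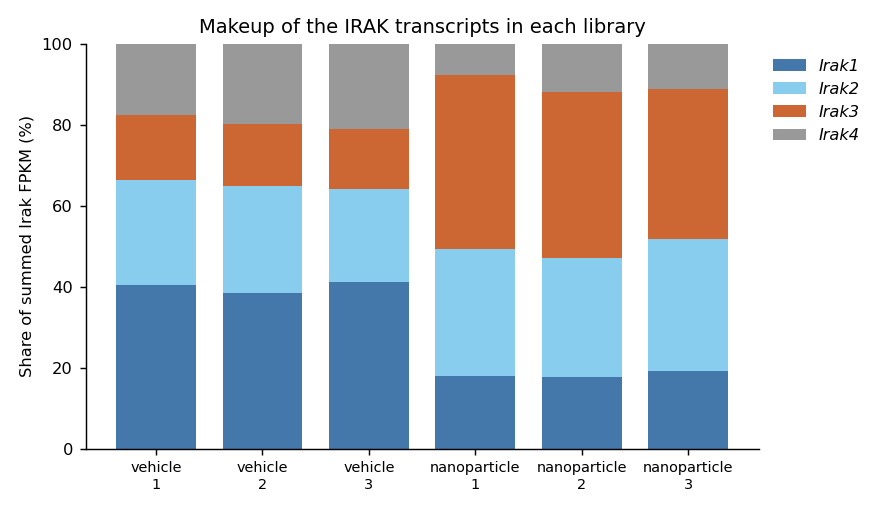
Percent of the summed Irak1, Irak2, Irak3 and Irak4 FPKM that each transcript made up, 1 stacked bar per library. Irak1 is the largest part of each vehicle bar (38.4% to 41.2%) and Irak3 the largest part of each nanoparticle bar (37.2% to 43.1%).

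Traf6 (ENSMUSG00000027164, chromosome 2, 101678429 to 101701669, plus strand), the ubiquitin ligase on which the IRAK kinases converge, was at 3.43, 3.15 and 3.48 FPKM in vehicle and at 10.5, 5.49 and 5.11 FPKM with nanoparticles. All nanoparticle libraries were above vehicle, and library 1 held 1.98 times the mean of the other two. The log2 change was 0.82 (SE 0.246, limma adjusted p = 0.0446). Without nanoparticle library 1 it was 0.53 and still past the threshold, whereas leaving out nanoparticle library 2 or any vehicle library ended the call, with log2 changes of 0.79 to 0.94.

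Tbk1 (ENSMUSG00000020115, chromosome 10, 121546455 to 121586787, minus strand), a kinase present in most cells that phosphorylates Irf3, was at 16.6, 17.2 and 16.3 FPKM in vehicle and at 36.4, 28.6 and 28.3 FPKM with nanoparticles. The groups were far apart relative to the spread within them, and the log2 change was 0.85 (SE 0.126, limma adjusted p = 0.0034). Ikbke (ENSMUSG00000042349, chromosome 1, 131254343 to 131279606, minus strand), which encodes IKK-epsilon, a related kinase known as inducible in immune cells, was at 3.12, 3.07 and 2.92 FPKM in vehicle and at 15.1, 8.99 and 7.98 FPKM with nanoparticles. It had the lowest FPKM of the 10 in vehicle, and every nanoparticle library was above every vehicle library, library 1 most. The log2 change was 1.49 (SE 0.223, limma adjusted p = 0.0035), with a mean level 3.53 times that of vehicle. Without nanoparticle library 1 the log2 changes were 0.74 for Tbk1 and 1.23 for Ikbke. Of the summed Tbk1 and Ikbke FPKM, Ikbke made up 15.2% to 15.8% in vehicle and 22.0% to 29.3% with nanoparticles.

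**Figure D3:**
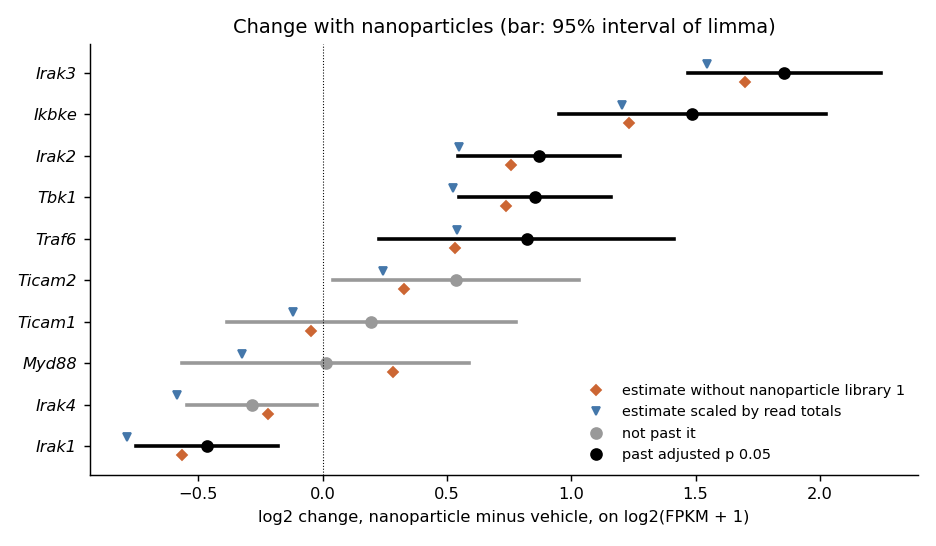
Log2 change of each transcript, nanoparticle minus vehicle on log2(FPKM + 1), with limma's 95% interval (black where the adjusted p is under 0.05, grey otherwise), and 2 further estimates: without nanoparticle library 1 and with libraries scaled by read totals. Irak3 (1.86) and Ikbke (1.49) stand highest and Irak1 (-0.46) lowest, and the estimates of Myd88 and Ticam1 lie on both sides of 0.

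The directions of Myd88 and Ticam1 rest on the scaling between libraries. With all libraries scaled to the same summed FPKM, the median over all genes in the test was -0.44 on the log2 scale, and with scaling by recovered read totals, added after seeing the data, it was -0.28. Calls over all genes then split into 884 higher and 4241 lower, or 1107 higher and 3610 lower, in place of 1817 and 1733. Under these scalings Myd88 was at -0.46 and -0.33 and Ticam1 at -0.25 and -0.12, none past the threshold, while Irak4 passed as lower at -0.75 and -0.59. Irak3 and Ikbke passed as higher under both, Irak2 and Tbk1 under the second, and Traf6 under neither. Relative to the median of all genes under each scaling, Irak3 was at 1.94 and 1.83, Ikbke at 1.64 and 1.48, Irak1 at -0.51 and -0.50, and Myd88 at -0.020 and -0.043.

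In 6 ratios of 2 transcripts within a library, which are free of that scaling, 3 separated the groups. The share of other gene pairs that would do so was not computed. Of single tested genes, 52.1% did not overlap between groups, and every transcript in these 3 ratios was among them. The ratio of Irak2 to Irak1 was 0.638, 0.691 and 0.559 in vehicle and 1.72, 1.67 and 1.70 with nanoparticles. The nanoparticle libraries, library 1 included, lay close together, and the difference in log2 ratio was 1.44. Irak3 to Irak4 was 0.909, 0.769 and 0.714 in vehicle and 5.62, 3.50 and 3.34 with nanoparticles, a log2 difference of 2.35. Ikbke to Tbk1 was 0.188, 0.179 and 0.179 in vehicle and 0.415, 0.314 and 0.282 with nanoparticles, a log2 difference of 0.87. For these 3 ratios the exact permutation test, two-sided, gave p = 0.1, the smallest that 3 libraries against 3 allow, and an adjusted p of 0.2 over the 6 ratios. The ratio of Irak1 to Irak4, at 1.94 to 2.29 and 1.50 to 2.36, overlapped between groups (exact permutation p = 0.5, adjusted p = 0.6), as did Ticam2 to Ticam1 (exact permutation p = 0.2, adjusted p = 0.3). Ticam1 to Myd88 was 0.242 to 0.260 in vehicle and 0.605, 0.256 and 0.150 in nanoparticle libraries 1 to 3 (exact permutation p = 0.8, adjusted p = 0.8).

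**Figure D4:**
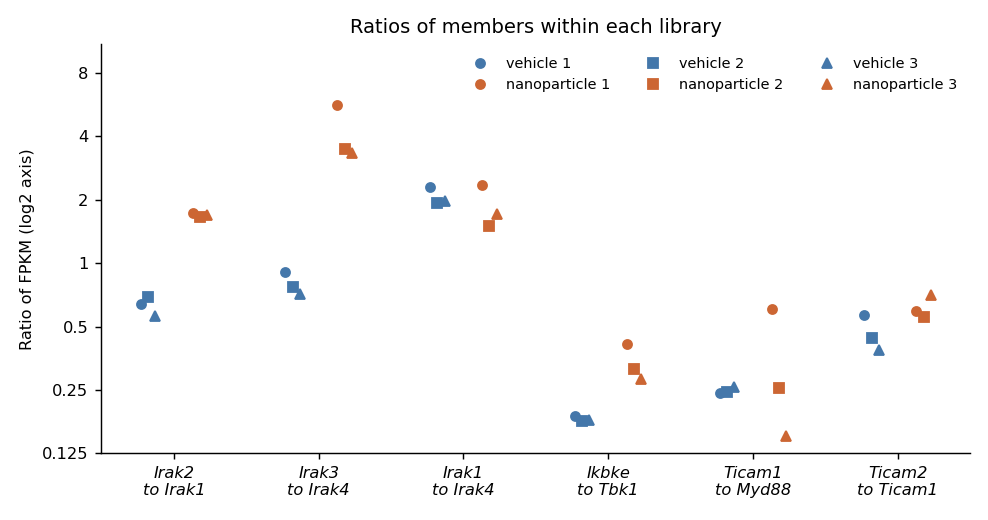
Ratio of the FPKM of 2 transcripts within each library (log2 axis), 1 point per library, for 3 vehicle and 3 nanoparticle libraries. The groups are separate for Irak2 to Irak1, Irak3 to Irak4 and Ikbke to Tbk1, and Ticam1 to Myd88 spreads from 0.150 to 0.605 among the nanoparticle libraries.

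In vehicle, the order of mean FPKM was Myd88, Tbk1, Irak1, Ticam1, Irak2, Irak4, Irak3, Ticam2, Traf6 and Ikbke. Only Ticam1 and Irak2, at means of 10.2 and 9.80 FPKM, were neighbours whose libraries overlapped. With nanoparticles the order of means was Myd88, Tbk1, Irak3, Irak2, Ticam1, Irak1, Ikbke, Ticam2, Traf6 and Irak4, and the ranges of every pair of neighbours overlapped across libraries. Within each of the 3 nanoparticle libraries, however, Tbk1 was above Irak3, Irak3 above Irak2, Irak2 above Ticam1 and Ikbke above Ticam2, whereas the other neighbours changed places in at least 1 library. Irak3 went from rank 7 to rank 3, Ikbke from 10 to 7, Irak1 from 3 to 6 and Irak4 from 6 to 10.

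Promoter windows were searched for motifs of transcription factors known to act below these receptors. RefSeq start sites on GRCm38.p6 were matched for 9 of the 10 transcripts (11 windows of 250 bases before to 50 after a start, as Irak1 and Irak3 have a pair of starts each), and Ticam2 had no entry. Windows were searched on both strands for the interferon-stimulated response element (ISRE, GAAA followed by any 2 bases and GAAA again), the STAT-binding GAS element (TTCNNNGAA), the AP-1 site (TGANTCA) and the 10-base kappaB consensus. The stretches below run from 100 bases before the start to the first transcribed base, 5′ to 3′ on the strand of the gene, with motif matches in capitals. They are those of Myd88 (chr9:119340018-119340118, minus strand, a start inside the gene model given above), Ikbke (chr1:131279563-131279663, minus strand) and Irak3 (chr10:120202130-120202230, minus strand, the start that coincides with the annotated end of the gene model), shown because Myd88 and Ikbke hold the matches and Irak3 had the largest change.
Myd88: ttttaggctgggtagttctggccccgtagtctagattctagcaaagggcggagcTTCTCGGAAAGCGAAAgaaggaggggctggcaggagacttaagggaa
Ikbke: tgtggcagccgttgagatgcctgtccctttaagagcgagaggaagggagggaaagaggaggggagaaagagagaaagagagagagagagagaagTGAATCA
Irak3: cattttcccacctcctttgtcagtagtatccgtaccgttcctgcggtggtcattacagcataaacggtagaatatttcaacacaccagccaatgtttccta

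The window of Myd88 held a GAS match beginning 46 bases before the start and an ISRE match beginning 40 bases before it, which share 3 bases and appear as 1 run of capitals. Ikbke held a match to the AP-1 pattern, with A as its middle base, beginning 6 bases before the start. That pattern allows any middle base, here and in the share of all windows below. No other match to the 4 motifs was found in the 11 windows, and neither window of Irak3 held any. Among all 32851 RefSeq windows of the same length, 3.44% held the ISRE, 8.30% the GAS element, 7.81% the AP-1 site and 4.51% the kappaB consensus. A match is a description of letters, and its absence says only that those letters are not in this window.

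Genes around the 10 in the same pathway were read from the same fit. Of 47 such genes, in 5 lists, 41 passed the filter, 16 rose and 9 fell, with a median log2 change of 0.16. With the same summed FPKM in every library the counts were 10 and 14, where 48.0% of all tested genes were called, and with read totals they were 12 and 12, where 44.2% were. Without nanoparticle library 1 they were 19 and 13, where 64.8% of all tested genes were called. Among receptors that use these adaptors, 5 of 14 tested genes rose, namely Tlr1, Tlr2, Tlr3, Tlr6 and Tlr7, and 7 fell, namely Tlr8, Tlr9, Tlr13, Il1r1, Il18r1, Il18rap and Il1rl1. The shares over all tested genes, 17.0% higher and 16.2% lower, are the background of this count and of those of the other lists. The median of the receptors was -0.18, with Toll-like receptors called in both directions. Tlr2, a receptor for bacterial lipoproteins, rose from 25.6 to 29.1 FPKM in vehicle to 119 to 172 FPKM (log2 change 2.38, SE 0.167, limma adjusted p = 2.4e-04). Tlr8, an endosomal receptor, fell from 11.3 to 12.1 FPKM in vehicle to 3.27 to 6.46 FPKM (log2 change -1.19, limma adjusted p = 0.0058), Tlr9, a receptor for unmethylated DNA, had a log2 change of -1.05 (limma adjusted p = 0.0031), and Tlr13, a receptor for bacterial ribosomal RNA, one of -0.61 (limma adjusted p = 0.0079). These were named after their values were seen. Il1rl1, the interleukin-33 receptor chain, fell from 9.26 to 10.5 FPKM to 0.0533 to 1.10 FPKM (log2 change -2.75, limma adjusted p = 7.0e-04). Il18rap, of the interleukin-18 receptor, had a log2 change of -1.40 (limma adjusted p = 8.4e-04). It was low throughout, at 1.67 to 2.37 FPKM in vehicle and 0.00907 to 0.277 FPKM with nanoparticles. Adding 1 before the log makes the changes of such low values smaller, that of Tlr9 included. Tlr4, which uses all 3 adaptors described above, was at 13.5 to 14.9 FPKM in vehicle and 11.9 to 20.6 FPKM with nanoparticles and did not pass (limma adjusted p = 0.888). It is named outside the rule for named genes, for its link to those adaptors.

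Of 9 tested partners on the Traf6 side, 2 rose (17.0% of all tested genes did) and none fell at the threshold, and the median log2 change was 0.11. Ikbkb, the catalytic IKK-beta subunit, was at 2.87 to 2.98 FPKM in vehicle and 4.40 to 5.10 FPKM with nanoparticles (log2 change 0.57, limma adjusted p = 0.0051), and Traf3, a relative of Traf6, had a log2 change of 0.54 (limma adjusted p = 0.0317). Traf3 was counted in this list but is known to act mainly on the Ticam1 and Tbk1 side, which leaves Ikbkb as the other called gene of the list. Of 8 tested partners on the Tbk1 side, 4 rose (17.0% of all tested genes did) and 1 fell (16.2% did), and the median was 0.62. Tank, a scaffold that binds Tbk1 and Ikbke, was at 9.87, 11.6 and 11.9 FPKM in vehicle and at 43.9, 38.4 and 34.1 FPKM with nanoparticles (log2 change 1.71, SE 0.133, limma adjusted p = 3.3e-04). Azi2, a second adaptor of these kinases, had a log2 change of 1.07 (limma adjusted p = 0.0019), whereas Tbkbp1, another adaptor of Tbk1 and named after its values were seen, had one of -0.47 (limma adjusted p = 0.0076). Irf7, a target of both kinases and itself interferon-induced, was at 1.88 to 2.10 FPKM in vehicle and at 366, 106 and 124 FPKM in nanoparticle libraries 1 to 3 (log2 change 5.83, limma adjusted p = 3.3e-04). The difference between the lists was not tested.

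Genes listed here as brakes on the pathway had a median log2 change of 1.10 over 8 tested. Of them 5 rose and 1 fell, against 17.0% and 16.2% of all tested genes. The list includes Peli1 and Peli2, and whether each listed gene restrains the pathway in these cells was not tested. Peli1, a ubiquitin ligase that binds IRAK proteins, was at 2.64 to 2.81 FPKM in vehicle and at 10.4 to 12.2 FPKM with nanoparticles (log2 change 1.75, SE 0.098, limma adjusted p = 1.1e-04). Its relative Peli2, named after its values were seen, fell (log2 change -0.64, limma adjusted p = 0.0064). Tnip1, a partner of the deubiquitinating enzyme A20, had a log2 change of 2.23 (limma adjusted p = 1.3e-04). Usp18, which removes Isg15 and curbs interferon receptor signalling, had a log2 change of 4.72 (limma adjusted p = 7.1e-05). Of the adaptors outside the 10, Tirap and Pik3ap1 were tested and neither passed, and Sarm1 was under 0.1 FPKM in every library.

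**Figure D5:**
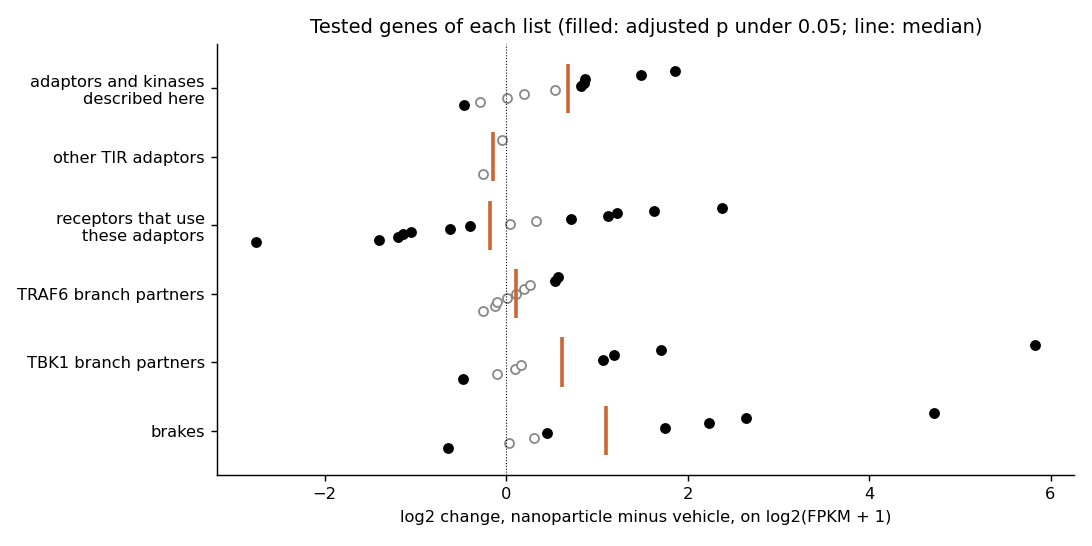
Log2 change, nanoparticle minus vehicle on log2(FPKM + 1), of each tested gene of the 10 adaptors and kinases and of the 5 pathway lists. Filled points passed the adjusted p of 0.05, open points did not, and the line is the list's median. That median was 0.68 for the 10, -0.15 for the other TIR adaptors and -0.18 for the receptors. It was 0.11 for the Traf6 side, 0.62 for the Tbk1 side and 1.10 for the genes listed as brakes.

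The tested genes whose profile over the 6 libraries was closest to that of Irak3 were Mov10, an RNA helicase, Tnfaip2, a tumour necrosis factor-inducible gene, and Parp9, which is linked to the interferon response. Their root mean square differences from Irak3 were 0.060, 0.071 and 0.080 on log2(FPKM + 1) after the vehicle mean of each gene was subtracted. Like Irak3, each was highest in nanoparticle library 1, with log2 changes of 1.89, 1.86 and 1.89. Both likenesses follow from choosing the genes by their profile, and how many other genes lay nearly as close was not counted.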

How the data were processed

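The authors deposited 2 tables of 23398 genes by 6 libraries, whose 140388 values are identical. The unit, FPKM, is inferred from the values, since no header or label names it. Multiplied by the merged exon length of GENCODE M21 and 1 scale per library, the values above 0 came out whole (within 0.01) for 95.8% to 96.1% per library, and a length that gave whole reads was searched for the remaining genes. Over 13988 genes, size factors of the median-of-ratios kind matched the recovered library scales, so the deposited FPKM already carry such a scaling, which hides a shift shared by most genes. Per the submitters' processing notes, STAR 2.5, HTSeq, edgeR 3.16.5 and DESeq2 and the builds mm10 and hg19 were used, with no role or order given, and strand handling is not given in the sources used here. Positions are those of GENCODE M21 on GRCm38 (mm10).

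The FPKM deposited by the authors were analysed with limma 3.58.1 (R 4.3.3): 1 was added, log2 was taken, and lmFit and eBayes with a mean-variance trend were run with group as the single term. The fit was tested on simulated data. It called 53 of 100 genes given a log2 change of 1 in either direction, and 91 of 100 given 2. Of its 151 calls, 7 were false. Both groups had the same spread in that simulation, and a change of 1 or less can be missed. Intervals are 95%. Ratios were tested with exact permutation in scipy 1.17.1. The members and lists were chosen with earlier results of these data known. Genes named are the 10 members, up to 3 per pathway list with the smallest adjusted p among called genes with groups that did not overlap, and the 3 closest in profile to the member with the largest change. Alternatives were the pseudocount, filters, scalings, trend, library weights, a replicate block, limma-voom on recovered reads and leaving out each library. Scaling by read totals and limma-voom were chosen after seeing the data.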

Additional observations from a re-analysis of the deposited data

How the results depend on the processing

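Irak3 and Ikbke passed the threshold in the same direction in all 15 alternative fits, with log2 changes of 1.50 to 2.02 and 1.20 to 1.76. Irak2 and Tbk1 passed in 14, Irak1 in 9 and Traf6 in 8. These counts include the fit with library weights described below. Of all tested genes, 14.4% (no filter on low values) to 81.6% (library weights) passed in the same fits. The number of the 10 transcripts past the threshold was 4 to 8 when 1 library was left out, and all genes past it numbered 2141 to 6923, highest without nanoparticle library 1. Library weights estimated by limma did not converge, gave nanoparticle library 2 a weight of 26.9 and library 1 one of 0.0462, and called 8716 genes and 10 of the 10, so that fit was not relied on. The log2 change of Myd88 reversed to -0.46 (same summed FPKM in every library) and -0.33 (read totals) and that of Ticam1 to -0.25 and -0.12. With 1 library left out, they ranged from -0.18 to 0.28 and from -0.046 to 0.44, and the difference in log2 ratio of Ticam1 to Myd88 from -0.34 to 0.66. The cause was not tested. With no filter on low values Traf6 missed the threshold (limma adjusted p = 0.0994).

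Libraries with the same number did not deviate together: their correlations were 0.07, 0.11 and -0.06, and nanoparticle library 3 correlated at 0.11 with vehicle library 2. With a replicate block, 2785 genes and 6 of the 10 passed, with Ticam2 in (adjusted p = 0.0470) and Irak1 out (adjusted p = 0.0591). Blocked permutation of the ratios cannot go below p = 0.25. Depth limits Ticam2 most, at 337 reads in its lowest library.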
